A study of Mus musculus with 5 samples.

Results

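T cell receptor genes are the V, D, J and C segment genes of the alpha, beta, gamma and delta loci (Tra, Trb, Trg and Trd). They were taken from the deposited count table of dermal group 2 innate lymphoid cells (dILC2s) by gene symbol, and were chosen by their measured counts: a gene was kept when it held at least 10 counts over the 5 libraries. Of the 47729 genes of the table, 267 had such a symbol, 99 of these held a count, and 37 were kept. The minimum was set on the sum over all libraries and did not use the genotypes. The kept genes were 7 C, 1 D, 18 J and 11 V genes, and GENCODE M21 classes all 37 as T cell receptor genes, with Trbj2-6 as a pseudogene. The study compared freshly sorted, unstimulated dILC2s of the skin of wild-type (WT) and Rag1-/- mice. WT mice were C57BL/6, Rag1-/- mice carried the Rag1 knockout on the same background (the allele is not given in the sources used here), and the methods give all mice as female young adults. The labels give 30 WT and 16 Rag1-/- mice, whose cells were pooled into 3 WT libraries (pools 5, 6 and 13) and 2 Rag1-/- libraries (pools 2 and 7), while the methods give another number of Rag1-/- mice. Because each library is a pool, a p-value measures the spread between pools and not between mice. The cell type label of the Rag1-/- libraries reads type 3 rather than type 2, whereas the protocols of both genotypes name dILC2s.

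T cell receptors are heterodimers of an alpha with a beta chain or of a gamma with a delta chain. In developing T cells the RAG1 and RAG2 proteins cut the DNA beside V, D and J segments, which are then joined into 1 exon, and this exon is spliced to a C gene. Innate lymphoid cells carry no such receptor, and mice without RAG1 cannot join the segments, yet C genes and segments that were not joined can still be transcribed from their own promoters (germline transcripts). Epidermal gamma-delta T cells of the mouse are known for a receptor built with the gamma segment Tcrg-V5 and the delta segment Trdv4. A short read on a V, J or C gene counts the segment and does not show whether it was joined.

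The segments are shown as the annotated transcripts of GENCODE M21 (GRCm38) give them, 5′ to 3′ on the strand of the gene. The first set holds the kept delta and gamma J genes, which the sections on those loci compare, and the most abundant J gene of each beta cluster. Capitals mark the match to TTNGNNNNNGG, a loosened DNA form of the phenylalanine-glycine motif by which J segments are recognized, searched on both strands. Of the glycine codon after the phenylalanine it fixes the first base alone. Trgj1 and Trgj4 thus match with GCA and GCC there, which code for alanine and not glycine.
Trdj1: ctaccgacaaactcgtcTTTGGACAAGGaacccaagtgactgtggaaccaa
Trdj2: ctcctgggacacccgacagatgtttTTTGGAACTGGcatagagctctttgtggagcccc
Trgj1: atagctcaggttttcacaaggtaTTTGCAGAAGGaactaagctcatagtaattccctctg
Trgj4: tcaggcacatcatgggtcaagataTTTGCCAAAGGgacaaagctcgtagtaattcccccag
Trbj1-1: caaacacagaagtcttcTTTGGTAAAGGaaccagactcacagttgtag
Trbj2-1: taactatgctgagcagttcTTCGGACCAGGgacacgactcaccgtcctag

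This loosened motif was found in 16 of the 18 J genes and in none of them on the other strand. It was found in 65 of all 80 J genes with an annotated transcript. Of 141515 reference transcripts of at least 60 bases, receptor genes included, 4.50% held it in their first 60 bases. The J genes without it were the pseudogene Trbj2-6 and Trbj1-7, which are shown without capitals for comparison, together with Trbd1, the only D gene kept.
Trbj1-7: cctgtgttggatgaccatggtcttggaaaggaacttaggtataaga
Trbj2-6: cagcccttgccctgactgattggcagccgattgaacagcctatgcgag
Trbd1: gggacagggggc

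The last 60 bases are shown of 3 V genes, the most abundant of the gamma, delta and beta loci, with the match to TANNNNTGTG in capitals, which codes for the tyrosine and cysteine near the end of a V segment.
Tcrg-V5: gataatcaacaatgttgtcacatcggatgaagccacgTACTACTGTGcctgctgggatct
Trdv4: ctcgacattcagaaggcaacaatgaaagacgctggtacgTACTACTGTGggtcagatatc
Trbv16: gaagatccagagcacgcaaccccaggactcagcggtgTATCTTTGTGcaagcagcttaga
This motif was found in 10 of the 11 V genes (not in Tcrg-V4) and in 141 of 175 V genes with an annotated transcript. Of the same reference transcripts, receptor genes included, 2.31% held it in their last 60 bases. Both motifs describe the annotated segments and not the reads.

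The libraries held 32939428 to 39477243 counts on genes in WT and 8050562 (pool 2) and 38922750 (pool 7) in Rag1-/- libraries, so that 3 counts, taken as the smallest level the depth can show, were 0.0760 to 0.0911 CPM (counts per 1000000 counts on genes) in WT and 0.373 and 0.0771 CPM. For the targeted gene Rag1, the WT pools had 4, 0 and 5 counts and pools 2 and 7 had 5 and 48, so that it was not lower in the libraries labelled Rag1-/-, and every genotype below is that of the label. A count per gene does not show which part of the gene was transcribed. The 29 genes of a pan-leukocyte list summed to 1101, 2606 and 2608 CPM in WT and to 8491 and 7443 CPM in Rag1-/- libraries, and 16 keratinocyte genes summed to 31371 to 44347 CPM and to 7894 and 18192 CPM. The summed level of 13 ILC2 genes was 1255 to 2357 CPM and 5912 and 3877 CPM. Of these 13, Areg, Il5, Il13, Arg1 and Thy1 were called higher and none lower in Rag1-/- libraries (edgeR). Of 8 ILC3 genes, Il23r, Il22, Il17f and Ccr6 were called higher and Ahr lower in Rag1-/- libraries (edgeR), and their summed level overlapped (306 to 339 and 459 and 326 CPM). Of 4 NK cell genes Prf1 was called higher (edgeR), with summed levels of 1.85 to 2.94 CPM and 12.5 and 10.5 CPM. Beside these calls, 3.57% of all 19011 genes tested were called higher and 2.16% lower (edgeR, thresholds given below). Summed levels of 5 mast cell genes were 137 to 275 CPM in WT and 567 and 420 CPM in Rag1-/- libraries. Those of 4 myeloid genes were 325 to 852 CPM and 390 and 772 CPM. The mast cell sum was thus higher in Rag1-/- libraries, but only 1 of its 5 genes had a positive log2 fold change (median -0.48, edgeR). Of the 4 myeloid genes 1 had a positive log2 fold change (median -0.04, edgeR), and no gene of either list was called. Counts on the ILC2 list were thus present in each library, beside counts on keratinocyte, mast cell and myeloid genes. In such bulk samples fewer cells of a type and less RNA per cell cannot be told apart, and the part of these differences in the results below was not tested except where a value is given against the leukocyte genes.

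In WT pools 5, 6 and 13 the 37 genes together held 2626, 6548 and 4569 counts, against 3823 and 13558 in Rag1-/- pools 2 and 7, which is 67.7, 166 and 139 CPM against 475 and 348 CPM. Both Rag1-/- libraries were above each WT library, and WT pool 5, which was lowest in T cell receptor genes, was also lowest in leukocyte genes. Most of the counts lay on C genes. The 2 beta C genes held 14786 counts over the 5 libraries, the 3 gamma C genes 3304, Trdc 3136 and Trac 629. The delta V genes held 3640 counts and the 14 beta J genes 4366. The alpha locus stood apart in this respect: its 60 J genes held 64 counts and its 128 V genes 29, and none reached the minimum.

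Genotypes were compared with edgeR's quasi-likelihood test and Benjamini-Hochberg adjustment over all genes, and calls required both a log2 fold change beyond 1 in either direction and an adjusted p-value under 0.05. A total of 28 of the 37 genes passed the filter on low counts. Trbc2, Trac, Tcrg-C4 and Trgj4 were called higher in Rag1-/- libraries, 4 of 28 genes, where 3.57% of all 19011 genes tested were called higher. Tcrg-V5 was called lower, 1 of 28 genes, where 2.16% of all genes tested were called lower. In CPM the Rag1-/- libraries lay above all WT libraries for 18 of the 28 genes (21.9% of all genes tested) and below them for Tcrg-V5, Tcrg-C2 and Trdj2 (24% of all genes tested). The 28 genes had a median log2 fold change of 1.72, and all genes tested one of 0.02. An exact permutation test of 1 gene between 3 and 2 libraries has 10 splits and cannot give a two-sided p (the doubled one-sided p) below 0.2, so these calls depend on a spread estimated over many genes.

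The beta locus (chromosome 6) held the highest counts. Trbc1, the C gene of the first D-J-C cluster (41538218 to 41539881), had 9.82, 47.7 and 38.2 CPM in WT pools 5, 6 and 13 and 154 and 126 CPM in Rag1-/- pools 2 and 7. The groups did not overlap, WT pool 5 was far below the other WT pools, and the log2 fold change of 2.16 (SE 0.57, adjusted p = 0.0675, edgeR) did not pass. Trbc2, the C gene of the second cluster (41546730 to 41548352), had 7.96, 16.3 and 19.7 CPM in WT and 80.1 and 73.8 CPM in Rag1-/- libraries. It rose by a log2 fold change of 2.43 (SE 0.36, adjusted p = 0.0306, edgeR), and the lowest Rag1-/- library was well above the highest WT library. The share of Trbc1 in the beta C counts was 65.3% ± 9.69 (SD, n = 3) in WT and 64.4% ± 1.91 (SD, n = 2) in Rag1-/- libraries and overlapped between the groups. The 2 genes are near copies: 283 of 688 windows of 50 bases of Trbc1 also occur in Trbc2, so that reads there could be split between them.

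**Figure D1:**
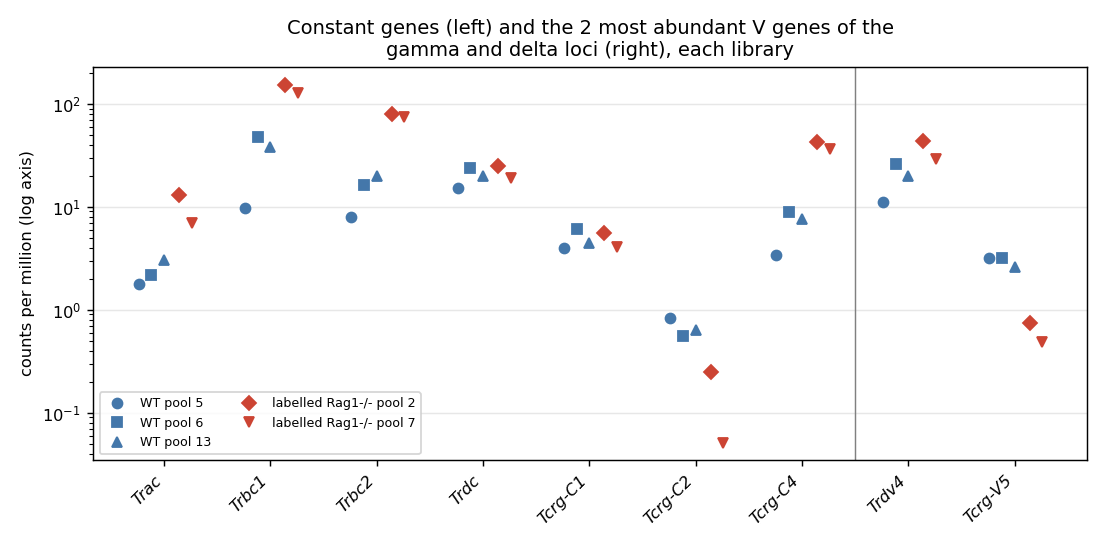
CPM (log axis) of the 7 C genes and of Trdv4 and Tcrg-V5 in each library, with WT pools in blue and pools labelled Rag1-/- in red. Trbc2, Trac and Tcrg-C4 lie higher in both Rag1-/- libraries (Trbc2 at 73.8 and 80.1 CPM against at most 19.7), Trdc and Tcrg-C1 overlap, and Tcrg-C2 and Tcrg-V5 lie lower.

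All 14 J genes of the beta locus were kept, and they lie between 652 and 10598 bases after Trbd1. The segment closest to Trbd1, Trbj1-1, held most counts of all J genes in both genotypes, with 2.29, 6.28 and 5.28 CPM in WT and 19.9 and 13.9 CPM in Rag1-/- libraries. Trbj1-2, 789 bases after Trbd1, was next, with 1.31, 4.56 and 3.07 CPM against 15.8 and 8.20 CPM. The groups did not overlap for either gene, and the log2 fold changes were 1.89 (SE 0.44, adjusted p = 0.0513, edgeR) for Trbj1-1 and 2.01 (SE 0.54, adjusted p = 0.0717, edgeR) for Trbj1-2. In the second cluster Trbj2-1, the first J segment before Trbc2, was highest, with 0.309, 0.887 and 1.52 CPM in WT and 4.35 and 5.70 CPM in Rag1-/- libraries (log2 fold change 2.52, SE 0.63, adjusted p = 0.0609, edgeR). Trbj1-6 had 0.773, 3.14 and 1.03 CPM against 7.45 and 3.06 CPM, so that Rag1-/- pool 7 fell within the WT range.

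The 14 beta J genes had log2 fold changes from 0.60 (Trbj1-7) to 2.67 (Trbj2-6), with a median of 1.61, all positive, and adjusted p-values from 0.0513 to 0.647 (edgeR), so that none was called. Their direction depended on the scaling: when edgeR was scaled on leukocyte genes (described below), 9 of the 14 were negative and the median was -0.27. In CPM the groups did not overlap for 10 of them and overlapped for Trbj1-6, Trbj1-7, Trbj2-5 and Trbj2-7. Summed over the locus, beta J genes had 17.9 ± 9.26 CPM (SD, n = 3) in WT and 60.02 ± 19.99 CPM (SD, n = 2) in Rag1-/- libraries, 3.36-fold higher, while beta C genes were 4.66-fold higher (46.5 ± 25.1 and 217 ± 24.1 CPM). The J share of beta counts was accordingly lower in Rag1-/- libraries, at 22.0% and 18.5%, than in WT, at 29.6%, 28.4% and 24.9%. Trbj2-1 took 22.2%, 28.5% and 39.7% of the counts of the second J cluster in WT and 43.8% and 50.0% in Rag1-/- libraries. Trbd1, the D segment (12 bases, 41533201 to 41533212), had 0.361, 1.55 and 1.09 CPM in WT and 5.09 and 1.98 CPM in Rag1-/- libraries (log2 fold change 1.80, SE 0.69, adjusted p = 0.157, edgeR). A read longer than Trbd1 that is counted on it also covers its flanks, and its level is that of the region. Trbj1-6 and Trbj1-7 lie within 50 bases of each other, as do Trbj2-4 and Trbj2-5, so that 1 read can cover both.

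**Figure D2:**
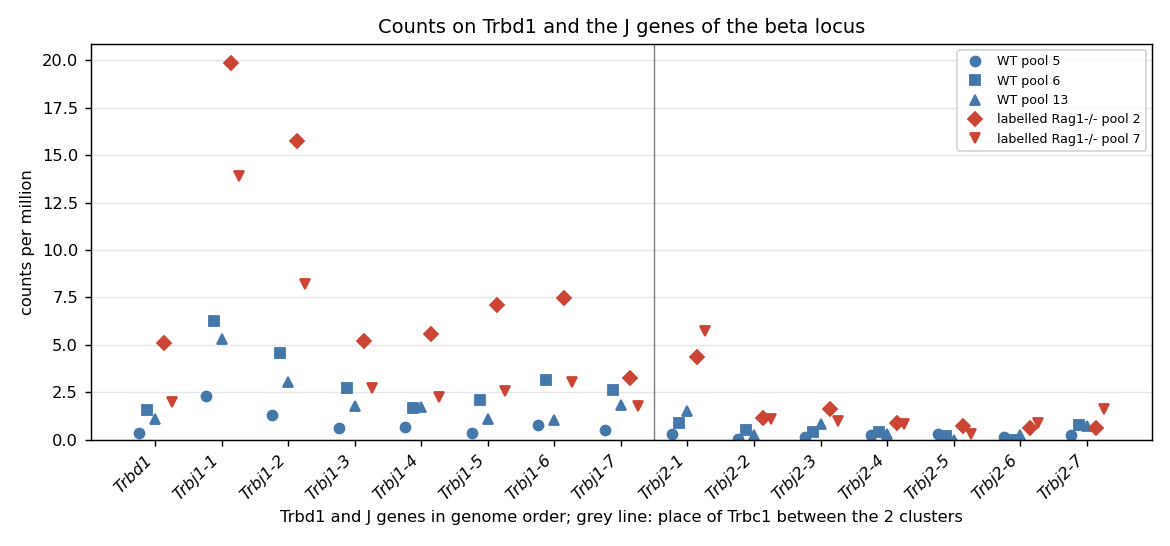
CPM of Trbd1 and the 14 beta J genes in genome order, each point a library (WT in blue, labelled Rag1-/- in red). Trbj1-1 and Trbj1-2, the J genes nearest to Trbd1, are highest in both genotypes (13.9 and 19.9 CPM for Trbj1-1 in Rag1-/- libraries), and within the second cluster Trbj2-1 is highest, level with Trbj2-5 in WT pool 5.

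V genes of the beta locus were nearly silent. Only 3 of 35 reached the minimum. Trbv16 (41151740 to 41152230) had a count of 16, 6 and 0 in WT pools 5, 6 and 13, of 190 in Rag1-/- pool 2 and of 0 in pool 7. The 16 counts of WT pool 5 alone were above the minimum. Most counts of Trbv16 still lay in 1 library, the shallowest, in which it was at 23.6 CPM, while pool 7 of the same genotype, sequenced to 38922750 counts, had none. Its log2 fold change of 5.87 (SE 2.01, adjusted p = 0.123, edgeR) turned to -5.84 without pool 2. Trbv13-2 held 0, 11 and 3 counts in WT and 1 and 9 in Rag1-/- libraries. Trbv17, with 12 counts in all, was the gene just inside the minimum and had 9, 3 and 0 counts in WT and none in Rag1-/- libraries. Just outside it were Trbv1, Trbv12-2, Trbv14 and Trbv19 with 8 counts each and Trdd2 with 9.

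The alpha locus (chromosome 14) was represented by its C gene. Trac (54220521 to 54224206) had 1.78, 2.18 and 3.04 CPM in WT and 13.04 and 6.91 CPM in Rag1-/- libraries. It rose by a log2 fold change of 2.11 (SE 0.40, adjusted p = 0.0349, edgeR), and the groups did not overlap. The 60 alpha J genes together held 5, 11 and 5 counts in WT against 21 and 22 in Rag1-/- libraries, and the 128 alpha V genes held 4, 8 and 10 counts and 5 and 2 counts. The alpha J genes were thus higher in both Rag1-/- libraries as CPM (0.186 ± 0.0807, SD, n = 3, against 1.59 ± 1.44, SD, n = 2), with no gene above the minimum.

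The delta locus lies within the alpha locus. Trdc, its C gene (54142851 to 54148868), had 15.3, 23.8 and 19.9 CPM in WT and 24.8 and 19.2 CPM in Rag1-/- libraries. The groups overlapped, and the log2 fold change was 0.18 (SE 0.26, adjusted p = 0.714, edgeR). Trdv4 (54074905 to 54075515) had 11.1, 26.2 and 19.8 CPM in WT and 44.0 and 29.2 CPM in Rag1-/- libraries. Both Rag1-/- libraries were above WT, but the log2 fold change of 0.96 (SE 0.37, adjusted p = 0.157, edgeR) did not pass. Trdv4 took 98.3% to 99.5% of the counts on the 3 kept delta V genes in each library. Trdv2-2 (0, 5 and 7 counts in WT, 2 and 3 in Rag1-/- libraries) and Trdv5 (3, 0 and 4, and 1 and 5) made up the rest, and Trdv5 overlaps Trdc on the opposite strand.

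The 2 delta J segments moved in opposite directions. Trdj1 (54123138 to 54123188) had a count of 1, 14 and 3 in WT pools 5, 6 and 13 and of 12 and 45 in Rag1-/- pools 2 and 7, which is 0.0258, 0.355 and 0.0911 CPM against 1.49 and 1.16 CPM. Trdj2 (54136779 to 54136837), which lies between Trdj1 and Trdc, had a count of 19, 40 and 18 in WT and of 2 and 6 in Rag1-/- libraries (0.490, 1.01 and 0.546 CPM against 0.248 and 0.154 CPM). For Trdj1 both Rag1-/- libraries were above each WT library. For Trdj2 both were below, although its count in pool 2 was under the 3 taken as the smallest level. The log2 fold changes of Trdj1 and Trdj2 were 3.03 (SE 0.94, adjusted p = 0.0999, edgeR) and -1.84 (SE 0.77, adjusted p = 0.184, edgeR), and neither passed. As a share of delta J counts, which does not depend on the scaling of a library, Trdj1 made up 1 of 20 counts (95% exact binomial interval 0.127% to 24.9%), 25.9% (15.0 to 39.7) and 14.3% (3.05 to 36.3) in WT and 85.7% (57.2 to 98.2) and 88.2% (76.1 to 95.6) in Rag1-/- libraries. The intervals cover counting error only, and those of the genotypes did not overlap. The share has no test of its own. Both segments overlap a gene on the opposite strand (Gm30275 for Trdj1, Gm43434 for Trdj2), and the reads do not tell the strands apart. V genes made up 41.5%, 51.2% and 49.5% of delta counts in WT and 62.5% and 58.9% in Rag1-/- libraries. Counted per kilobase of exon, this difference of 13.3 percentage points was 1.26 points. That share includes the J genes of 51 and 59 bases, on which few counts weigh heavily. In Rag1-/- libraries Trdj1 had a mean of 25.9 CPM per kilobase and Trdc one of 5.69.

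The gamma locus (chromosome 13) holds 4 C genes in separate clusters, each with its own J gene, and the clusters differed. Tcrg-C4 (19344558 to 19352756) had 3.40, 8.99 and 7.65 CPM in WT and 42.6 and 36.0 CPM in Rag1-/- libraries. It rose by a log2 fold change of 2.58 (SE 0.40, adjusted p = 0.0306, edgeR). Its J gene Trgj4 (19342152 to 19342212) had 0.335, 0.405 and 0.364 CPM in WT and 3.73 and 1.77 CPM in Rag1-/- libraries, and rose by 2.88 on the log2 scale (SE 0.53, adjusted p = 0.0335, edgeR). The groups did not overlap for either gene.

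Tcrg-C1 (19214103 to 19217024), the C gene of the cluster that holds Tcrg-V5, had 3.94, 6.10 and 4.40 CPM in WT and 5.59 and 4.06 CPM in Rag1-/- libraries. The groups overlapped, and the log2 fold change was 0.01 (SE 0.35, adjusted p = 0.987, edgeR), with a sign that other settings turned. Trgj1, the J gene of this cluster, held 8, 6 and 6 counts in WT and 1 and 7 in Rag1-/- libraries and did not pass the filter. Tcrg-C2 had a count of 32, 22 and 21 in WT and of 2 in each Rag1-/- library, lower in both (log2 fold change -2.59, SE 0.91, adjusted p = 0.128, edgeR). Both Rag1-/- counts were under the 3 taken as the smallest level the depth can show. Tcrg-C3 had no count in any library. Of the windows of 50 bases, 299 of 875 in Tcrg-C1 and 220 of 865 in Tcrg-C2 also occur in another gamma C gene and none in Tcrg-C4, so that the levels of Tcrg-C1 and Tcrg-C2 are the less certain.

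Tcrg-V5 (19192278 to 19192725) had 3.20, 3.17 and 2.58 CPM in WT, which is 124, 125 and 85 counts, and 0.745 and 0.488 CPM in Rag1-/- libraries, which is 6 and 19 counts. The WT libraries were close to each other, both Rag1-/- libraries were below them, and the gene fell by 2.31 on the log2 scale (SE 0.47, adjusted p = 0.0383, edgeR). It was the member called lower. The other gamma V genes held at most 24 counts in a library. Tcrg-V7 held 0, 2 and 4 counts in WT and 1 and 24 in Rag1-/- libraries, Trgv2 held 9, 7 and 6 counts and 6 and 10 counts, Tcrg-V4 held 1, 3 and 6 counts and 0 and 5 counts, and Tcrg-V6 held 1, 12 and 0 counts and 0 and 2 counts. In Rag1-/- pool 7 Tcrg-V7 thus held more counts than Tcrg-V5, and in pool 2 Trgv2 held as many. None of these 4 passed the filter.

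Within the gamma locus the composition differed between the genotypes. Tcrg-C4 made up 41.6%, 57.4% and 60.3% of gamma C counts in WT and 87.9% and 89.8% in Rag1-/- libraries. Trgj4 made up 61.9%, 72.7% and 66.7% of gamma J counts in WT and 96.8% and 90.8% in Rag1-/- libraries, on 18 to 22 counts in WT. Tcrg-V5 made up 91.9%, 83.9% and 84.2% of gamma V counts in WT and 46.2% (exact binomial interval 19.2 to 74.9) and 31.7% (20.3 to 44.96) in Rag1-/- libraries. In each of these shares both Rag1-/- libraries lay outside the WT range. Summed gamma V genes had 3.44 ± 0.356 CPM (SD, n = 3) in WT and 1.58 ± 0.0518 CPM (SD, n = 2) in Rag1-/- libraries, whereas summed gamma C genes had 12.2 ± 3.77 and 44.3 ± 5.90 CPM. V genes therefore held 28.5%, 18.9% and 18.8% of gamma counts in WT and 3.00% and 3.54% in Rag1-/- libraries.

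**Figure D3:**
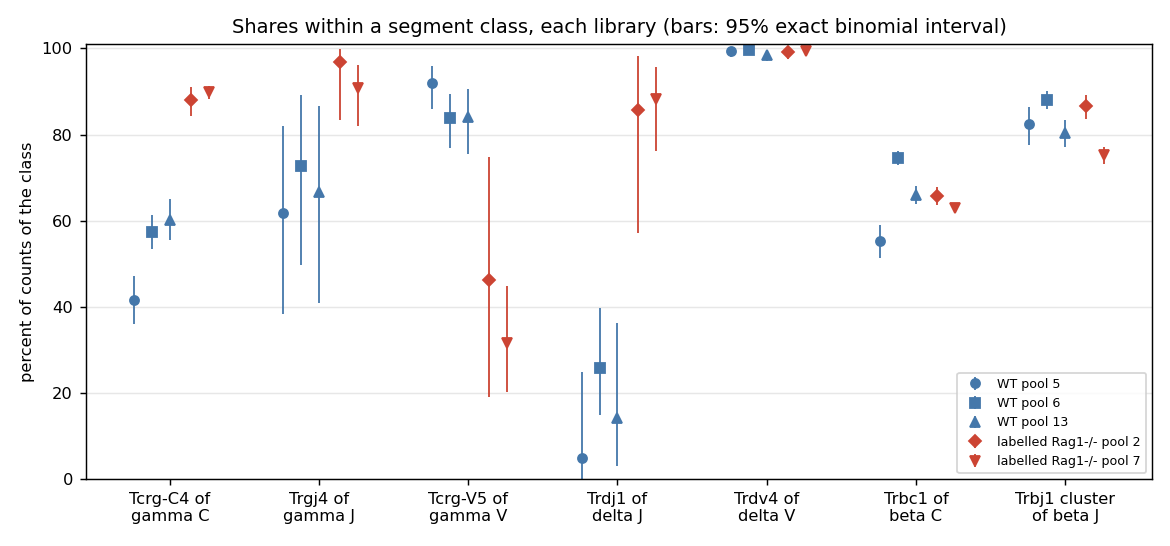
Percent of the counts of a segment class on 1 gene (or on the first beta J cluster) in each library, with 95% exact binomial intervals for counting error as bars. Trdj1 lies at or below 25.9% of delta J counts in WT and at 85.7% and 88.2% in Rag1-/- libraries, Tcrg-C4 and Trgj4 are higher and Tcrg-V5 lower in Rag1-/- libraries, while the shares of Trdv4, Trbc1 and the first beta J cluster overlap.

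Per kilobase of exon, which allows levels of different genes to be compared, the C genes of WT libraries ranked Trbc1 (42.6 ± 26.3 CPM per kilobase, SD, n = 3), Trbc2 (21.2 ± 8.72), Tcrg-C4 (6.78 ± 2.96), Tcrg-C1 (5.21 ± 1.23), Trdc (5.09 ± 1.10), Trac (2.49 ± 0.687) and Tcrg-C2 (0.737 ± 0.150). The libraries of Trbc1 and Trbc2 overlapped, as did those of Tcrg-C4, Tcrg-C1 and Trdc. Trbc1, Trbc2, Tcrg-C1 and Tcrg-C2 share windows with other C genes, as given above, so that their ranks are less certain in either genotype. In Rag1-/- libraries the order was Trbc1 (187 ± 26.3 CPM per kilobase, SD, n = 2), Trbc2 (111 ± 6.42), Tcrg-C4 (39.9 ± 4.75), Trac (10.7 ± 4.64), Trdc (5.69 ± 1.04), Tcrg-C1 (5.22 ± 1.17) and Tcrg-C2 (0.164 ± 0.152), and of these neighbours Trdc and Tcrg-C1 overlapped. Trac thus ranked below Trdc in WT and above it in Rag1-/- libraries. The V gene Trdv4 was higher per kilobase than its C gene in both genotypes, at 42.9 ± 17.1 (SD, n = 3) and 82.4 ± 23.6 CPM per kilobase (SD, n = 2).

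Since leukocyte RNA differed between the genotypes, the same counts were set against the counts on the 29 leukocyte genes. Per 1000 such counts, Trbc2 had 7.24, 6.24 and 7.55 counts in WT and 9.44 and 9.92 in Rag1-/- libraries, and Tcrg-C4 had 3.09, 3.45 and 2.93 against 5.02 and 4.84. These 2 genes still lay higher in Rag1-/- libraries, by less. Trbc1 had 8.92, 18.3 and 14.7 counts against 18.1 and 16.9, and Trac had 1.62, 0.836 and 1.16 against 1.54 and 0.929. Both overlapped on this scale, as did Trgj4 (0.304, 0.156 and 0.140 against 0.439 and 0.238) and Trbj1-1 (2.08, 2.41 and 2.02 against 2.34 and 1.87). Trdc had 13.9, 9.14 and 7.63 counts against 2.93 and 2.58, and Trdv4 had 10.1, 10.1 and 7.60 against 5.18 and 3.92. Tcrg-V5 had 2.90, 1.22 and 0.989 counts against 0.0878 and 0.0656. Trdc, Trdv4 and Tcrg-V5 lay lower in Rag1-/- libraries on this scale, whereas Trdj1 lay higher (0.0234, 0.136 and 0.0349 counts in WT against 0.176 and 0.155).

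**Figure D4:**
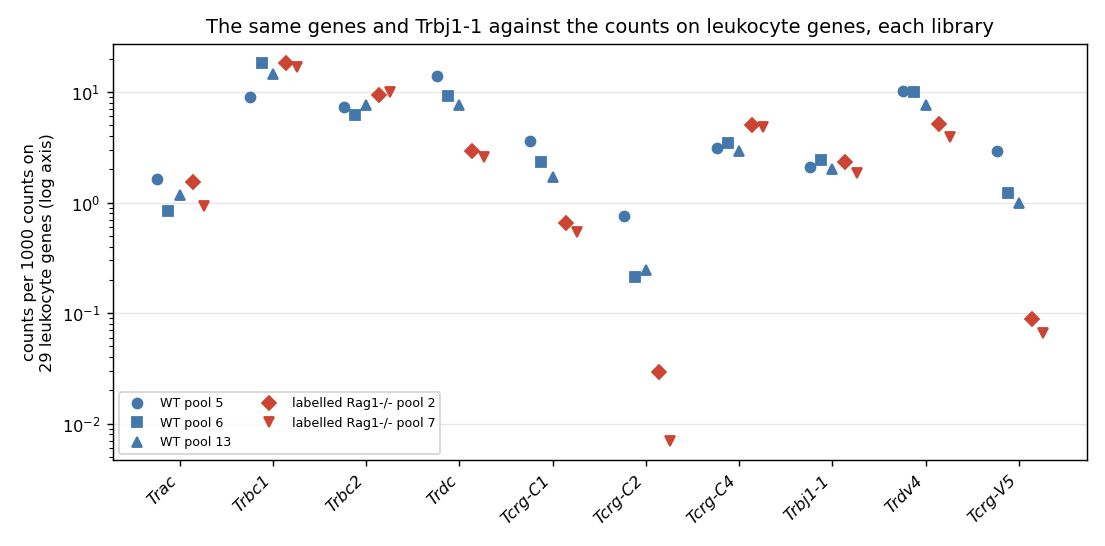
Counts of the C genes, Trbj1-1, Trdv4 and Tcrg-V5 per 1000 counts on 29 leukocyte genes (log axis) in each library, WT in blue and labelled Rag1-/- in red. Trac, Trbc1 and Trbj1-1 overlap, Trbc2 and Tcrg-C4 lie slightly higher in Rag1-/- libraries, and Trdc, Tcrg-C1, Tcrg-C2, Trdv4 and Tcrg-V5 lie lower.

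When edgeR was scaled on these leukocyte genes the median log2 fold change of all genes moved to -2.15, and 68.4% of all genes were called lower and 0.0842% higher. Under this scaling Tcrg-V5, Tcrg-C1, Tcrg-C2, Trdj2 and Trdc were called lower and Trbv16 higher. Relative to that median shift, Trdc at -1.89 and Tcrg-C1 at -2.07 were close to the median gene, while Tcrg-V5 at -4.48, Tcrg-C2 at -4.70 and Trdj2 at -3.80 were below it and Trac at 0.03, Trbc2 at 0.47, Tcrg-C4 at 0.64 and Trgj4 at 0.77 were above it. With DESeq2 in place of edgeR, 10 of the 37 genes were called higher (4.02% of 29909 genes with a count) and Tcrg-V5 lower (4.2% of them), while 10 of the 37 received no adjusted p-value. The genes called by DESeq2 were Trbc1, Trbc2, Trac, Tcrg-C4, Trgj4, Trdj1, Trbj1-1, Trbj1-2, Trbj1-5 and Trbj2-1. Without the filter on low counts edgeR called these 10 genes and Trbv16 higher (3.87% of all) and Tcrg-V5 lower (4.98% of all). Leaving out a library ended calls: with any WT pool or with Rag1-/- pool 2 left out, edgeR called no gene at all, with 1910 to 2843 genes at an unadjusted p under 0.05 in the higher and 1611 to 2357 in the lower direction. The log2 fold changes without Rag1-/- pool 2 were 2.40 for Trbc2, 1.64 for Trac, 2.50 for Tcrg-C4, 2.33 for Trgj4 and -2.53 for Tcrg-V5. Without Rag1-/- pool 7 Tcrg-V5 was at -2.06 (adjusted p = 0.0577, edgeR), and the other 4 passed, as did Trbv16.

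**Figure D5:**
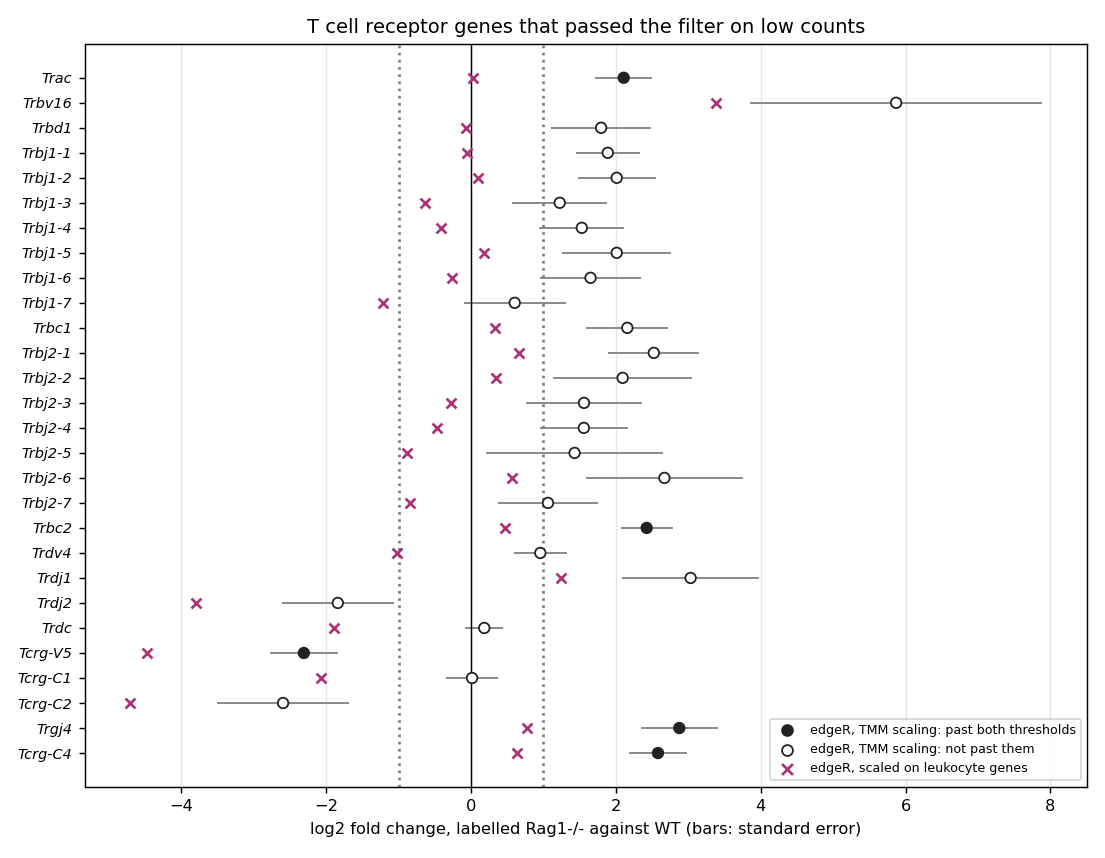
Log2 fold change of the 28 T cell receptor genes that passed the filter, labelled Rag1-/- against WT, with the standard error (circles, TMM scaling, filled where called) and under scaling on leukocyte genes (crosses, where the median of all genes is -2.15). Under TMM scaling 25 of the 28 lie above 0, of which 13 lie below it under leukocyte scaling, and Tcrg-V5, Tcrg-C2 and Trdj2 lie below it.

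The proteins that carry the receptor to the cell surface and signal for it were described with a list of 26 genes, of which 19 passed the filter. Of these, 6 rose in Rag1-/- libraries, where 3.57% of all genes tested rose, and none was called lower, where 2.16% of all were (edgeR), and the median log2 fold change was 1.57, against 0.02 for all genes tested. The signalling chains of the CD3 complex did not move together. Cd3g had 430, 522 and 627 counts in WT and 551 and 2496 in Rag1-/- libraries and rose by 2.23 (SE 0.26, adjusted p = 0.0306, edgeR), and Cd247, the zeta chain, had 229, 303 and 228 counts against 188 and 796 and rose by 1.71 (SE 0.24, adjusted p = 0.0306, edgeR). For Cd3e (212, 315 and 234 counts against 76 and 289) and Cd3d (64, 152 and 99 against 34 and 121) the CPM overlapped between the genotypes, and the log2 fold changes were 0.32 (SE 0.30, adjusted p = 0.553, edgeR) and 0.38 (SE 0.46, adjusted p = 0.655, edgeR). The difference between these pairs was not tested. The other genes that rose were the kinases Lck (2.47), Fyn (1.42) and Zap70 (2.13) and the adaptor Lat (2.17), given as log2 fold changes. No gene of the list was called higher under scaling on leukocyte genes. Rag1 had a log2 fold change of 3.53 (SE 1.03, adjusted p = 0.0865, edgeR), and Rag2 had no count in any library.

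Markers of T cells other than the receptor genes did not move together. Of 8 genes of alpha-beta T cells, 5 passed the filter and none was called, at summed levels of 7.77 to 10.4 CPM in WT and 15.8 and 9.33 CPM in Rag1-/- libraries, which overlapped. Cd8b1 had no count in WT libraries. Of 4 genes of gamma-delta T cells, Cd163l1 rose (log2 fold change 4.08, SE 0.45, adjusted p = 0.0306, edgeR), whereas Sox13 was at -0.35 (adjusted p = 0.562, edgeR), Blk at -1.01 (adjusted p = 0.379, edgeR) and Maf at 0.10 (adjusted p = 0.784, edgeR), and the summed level of the 4, 192 to 226 CPM in WT and 447 and 353 CPM in Rag1-/- libraries, was higher in both Rag1-/- libraries. The part of T cells in the levels of the receptor genes was not tested. The gate that the paper describes for flow cytometry of ear skin left out cells with CD2 or CD3 signal. Its methods for RNA sequencing do not give the gate used for sorting. The paper does not fully exclude that the sorted cells were heterogeneous or held a few other lymphoid cells of the skin. The library kit did not mark the strand, so reads of genes on opposite strands cannot be told apart. Tcrg-V5 overlaps Gm31887 in this way, and Trdv4 and Trdj1 overlap Gm30275. Neither symbol was found among the genes counted, so no counts can be given for them. Trdj2 and Trdc overlap Gm43434, which held 13, 41 and 7 counts in WT and 15 and 5 in Rag1-/- libraries. The part of reads from the opposite strand in the counts of these segments was not tested.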

How the data were processed

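RNA of sorted dILC2s was sequenced by the authors as single-end reads of 50 bases in 5 libraries, prepared with a poly(A) kit that does not mark strand. The authors aligned reads with STAR 2.5 to GRCm38, counted them per gene with featureCounts 1.5.0-p1, and deposited the counts without normalization; settings for reads that match several genes are not given in the sources used here. A second deposited table gives a normalized signal (counts scaled by size factors), used here in limma alone. The labels and the paper name different annotation releases. All 267 receptor genes had the coordinates of GENCODE M21. After filterByExpr and TMM scaling, counts were compared by the quasi-likelihood test of edgeR 4.0.16 (R 4.3.3) with Benjamini-Hochberg adjustment. Calls needed a log2 fold change beyond 1 in either direction together with an adjusted p-value under 0.05. Shares have exact binomial (Clopper-Pearson) intervals at 95%. Sums, shares and levels per kilobase have no test.

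The genes named are 4 given in advance (Tcrg-V5, Trdv4, Trbv16 and Trdc), all C genes, the 3 most abundant genes of each locus and segment class, called genes, genes at the edge of the minimum of 10 counts, and Rag1, Rag2, the CD3 chains and called genes of the signalling list. Trbj1-7, Trbj2-6, further genes at the ends of a range and single T cell markers were named after their values were seen. Genes and lists were chosen with earlier results of these data known. Alternatives were DESeq2 1.42.0, limma 3.58.1 on log2(deposited signal + 1), scaling by RLE, by library size or on 29 leukocyte genes, leaving out the filter or asking for 10 counts in every library, calls by the adjusted p-value without a fold limit, and each library left out in turn. The search for recombination signals beside the segments was not run, since it needs genome sequence, which was not used here.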

Additional observations from a re-analysis of the deposited data

How the results depend on the processing

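Of the alternatives, RLE scaling, library size alone, limma on the deposited signal and the adjusted p-value alone left the counts of calls within 1.5 times. The 679 genes called higher became 1203 with DESeq2, 1157 without the filter, 16 with leukocyte scaling and 0 to 814 when a library was left out, and the 411 called lower became 1256, 1488, 12999 and 0 to 1595, and 641 with at least 10 counts in every library. The 4 T cell receptor genes called higher became 10 with DESeq2, 11 without the filter, 1 with leukocyte scaling, 7 with at least 10 counts in every library and 0 to 5 without a library. The 1 called lower became 5 with leukocyte scaling, 0 with at least 10 counts in every library, which leaves Tcrg-V5 untested, and 0 to 0 without a library. Of the signalling list, the 6 called higher became 12, 11 and 0 with DESeq2, without the filter and with leukocyte scaling, and 0 to 6 without a library, and the 0 called lower became 1 with DESeq2 and 2 with leukocyte scaling. The log2 fold change of Tcrg-C1 turned to -0.035 with DESeq2, -0.013 with RLE scaling, -0.012 with library size alone, -2.07 with leukocyte scaling, -0.059 without the filter, -0.033 with at least 10 counts in every library and -0.0016 with limma, and ranged from -0.18 to 0.23 without a library. Leukocyte scaling turned 13 of the 25 positive genes: Tcrg-C1, Trbd1 (-0.070), Trdc (-1.89), Trdv4 (-1.03) and the beta J genes Trbj1-1 (-0.048), Trbj1-3 (-0.63), Trbj1-4 (-0.41), Trbj1-6 (-0.27), Trbj1-7 (-1.22), Trbj2-3 (-0.28), Trbj2-4 (-0.47), Trbj2-5 (-0.89) and Trbj2-7 (-0.84). Trbv16 ranged from -5.84 to 6.84 without a library. Against leukocyte counts the log2 ratio of summed levels was 0.032 for alpha C, 0.38 for beta C, -0.14 for beta J, -1.03 for delta V, -1.12 for delta J, -1.89 for delta C, -3.28 for gamma V, 0.23 for gamma J and -0.14 for gamma C genes, and that of beta V genes, with all counts as the denominator, ranged from -0.84 to 5.84 without a library. Per kilobase of exon, with the short J genes included, the difference in V share was 1.26 points for delta and -26.9 for gamma genes. The cause of these changes was not tested beyond how each alternative is built. No paired analysis was possible because the genotypes share no replicate numbers. Rag1-/- pool 2 held 8050562 counts, so that genes under 0.373 CPM are not resolved there. Leaving out 1 of the 2 Rag1-/- libraries assumes that the remaining one varies like the WT libraries.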
